A study of Mus musculus with 15 samples.

Results

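The peptide hormone genes Cck (ENSMUSG00000032532), Sct (ENSMUSG00000038580), Ghrl (ENSMUSG00000064177) and Sst (ENSMUSG00000004366) were followed in RNA from the ileum, the last segment of the small intestine, of 15 adult mice. They are 4 of the 37620 gene identifiers counted in each library and were chosen by name, with earlier results of these data known. All groups received 10 mg of tamoxifen by gavage, 2 times a day on every second day over 5 days. The libraries labelled mutant carried Rfx6f/f together with Vilin-CreERT2, a tamoxifen-dependent Cre driven from the villin promoter of gut epithelial cells, so the deletion was directed at that tissue rather than at hormone cells alone. The libraries labelled control carried floxed Rfx6 alleles and no Cre. Ileum was taken 8 days after tamoxifen from 3 control mice, all Rfx6f/f, and 4 mutant mice. At 3 months there were 4 controls, of which 2 were Rfx6f/f and 2 were Rfx6f/+, and 4 mutants.

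These peptides are made by enteroendocrine cells, single hormone-secreting cells scattered in the gut epithelium. Cholecystokinin from I cells empties the gallbladder and slows the stomach, secretin from S cells drives bicarbonate secretion, ghrelin from X cells stimulates appetite, and somatostatin from D cells restrains neighbouring hormone cells. Cck and Sst are also transcribed in enteric neurons. Rfx6, a winged-helix transcription factor, acts during the formation of pancreatic and intestinal endocrine cells. In whole ileum, fewer cells of a type and less RNA per cell cannot be told apart.

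The upstream sequences of all 4 genes are shown because the genes share a cell lineage and moved in the same direction. They come from RefSeq on GRCm38.p6, where all 4 matched by symbol, and each is the 250 bases before the transcription start, on the minus strand. For Ghrl, with 4 annotated starts, the outermost start was used. Capitals mark matches to the letters of a NeuroD E-box (CAGATG), a cyclic AMP response element (TGACGTCA) or a TATA box (TATAAA), searched on both strands.
Cck (chr9:121495695-121495944): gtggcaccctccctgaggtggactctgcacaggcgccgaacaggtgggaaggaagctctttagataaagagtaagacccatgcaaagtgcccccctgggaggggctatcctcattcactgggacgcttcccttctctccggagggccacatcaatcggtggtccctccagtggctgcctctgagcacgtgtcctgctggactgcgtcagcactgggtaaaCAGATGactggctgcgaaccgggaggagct
Sct (chr7:141279134-141279383): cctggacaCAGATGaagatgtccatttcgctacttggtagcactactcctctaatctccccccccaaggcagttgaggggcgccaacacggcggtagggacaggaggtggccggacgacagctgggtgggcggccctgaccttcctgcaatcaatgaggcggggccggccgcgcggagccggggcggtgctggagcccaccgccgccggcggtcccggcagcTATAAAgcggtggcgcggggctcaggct
Ghrl (chr6:113719912-113720161): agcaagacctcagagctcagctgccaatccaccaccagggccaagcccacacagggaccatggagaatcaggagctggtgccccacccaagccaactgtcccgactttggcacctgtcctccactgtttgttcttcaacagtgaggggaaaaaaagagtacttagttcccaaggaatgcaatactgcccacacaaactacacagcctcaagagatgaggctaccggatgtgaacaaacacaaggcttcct
Sst (chr16:23890845-23891094): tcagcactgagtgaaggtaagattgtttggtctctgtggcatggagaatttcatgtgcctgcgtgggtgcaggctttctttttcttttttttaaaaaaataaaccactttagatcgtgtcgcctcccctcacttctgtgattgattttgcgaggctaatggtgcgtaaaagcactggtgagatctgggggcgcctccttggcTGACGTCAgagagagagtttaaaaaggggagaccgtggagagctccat

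The Cck window held CAGATG at 30 to 25 bases before the start, and the Sct window held it at 242 to 237. Among all 32851 windows of this length, 14.4% held this E-box. Sct also had TATAAA at 28 to 23 bases before its start, as did 12.4% of all windows somewhere in the window. Sst had the full cyclic AMP response element at 48 to 41 bases before its start, found in 1.55% of all windows. None of the 4 windows held GTTGCC, the half-site of the RFX family, which 10.4% of all windows held, while the window of the innermost of the 4 Ghrl starts held 1 match. These letters do not overlap between motifs, the motifs were chosen after the sequences were seen, and a match is a description of letters, not a binding site. The GC content was 60.0% for Cck, 68.0% for Sct, 52.8% for Ghrl and 47.2% for Sst, against a median of 52.4% over all windows.

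Library totals ran from 30452485 to 54468586 counts at 8 days and from 26078462 to 36270306 at 3 months. Levels are in CPM, counts relative to library sizes scaled by the trimmed mean of M-values within each time point, errors of means are SD, and changes are log2 ratios of mutant over control. Rfx6, whose product was targeted, was no lower in mutants than in controls. Its level was 1.50 ± 0.133 CPM (n = 3) in controls and 1.71 ± 0.272 CPM (n = 4) in mutants at 8 days, and 1.59 ± 0.133 and 2.62 ± 0.5259 CPM (n = 4 each) at 3 months. These whole-gene totals do not check the labels, since the deleted stretch was not examined separately here, and the group names are used as labelled. The ileal bile-acid carrier gene Fabp6 was read at 37546 to 99337 counts at 8 days and 21465 to 88177 at 3 months, and the gene fell at 3 months by 1.44 on the log2 scale (SE 0.20, edgeR adjusted p = 0.00873).

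All 4 hormone transcripts were lower in every mutant library than in every control library at both times, but to different degrees. At 8 days Ghrl was at 0 to 2 counts per mutant library, Cck was at 10.5% of the control mean, Sst at 32.7% and Sct at 57.1%. By 3 months Ghrl was at 1 count in each mutant, Cck was at 36.0%, Sst at 39.9% and Sct at 51.2%. In the edgeR quasi-likelihood test, with Benjamini-Hochberg adjustment over all genes and a threshold of 0.05, 3 of the 4 fell at 8 days and all 4 at 3 months. At 8 days the same rule called 10 of 17493 genes lower (0.0572%) and 6 higher (0.0343%). For 3 months it called 738 of 17085 lower (4.32%) and 848 higher (4.96%). The pattern of every mutant library below every control library was met by 3.8% of genes at 8 days and by 9.53% at 3 months.

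Ghrl, which encodes the appetite-stimulating peptide ghrelin, lost almost all of its reads. At 8 days the controls held 30, 58 and 65 counts and the mutants 2, 1, 2 and 0. At 3 months the controls held 48, 93, 46 and 37 counts and each of the 4 mutants held 1. The groups lay far apart at both times, and no mutant library rose above 2 counts. The summed and depth-scaled counts were 41.6-fold higher in controls at 8 days (95% exact interval 17.5 to 130.1) and 61.6-fold higher at 3 months (23.7 to 228.1), intervals that cover counting error only. Both falls were called (edgeR adjusted p = 0.00342 for 8 days and 0.000285 for 3 months), with fitted log2 changes of -5.24 and -5.75 that depend on the prior count at so few reads. The control level was 1.24 ± 0.306 CPM (n = 3) at 8 days and 1.90 ± 0.668 CPM (n = 4) at 3 months. In GENCODE M21 the gene overlaps 2 antisense genes, Gm26982 and Gm44033, which share 3 and 169 exon bases with it and are not among the counted identifiers. Whether counting used strand is not given in the sources used here, so reads of the antisense genes may be part of the Ghrl count.

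Cck, which encodes the gallbladder and satiety hormone cholecystokinin, showed the deepest loss after Ghrl at 8 days among these 4 hormones. Control libraries held 3.54, 4.93 and 4.12 CPM (110, 182 and 224 counts), and mutant libraries 0.270, 0.410, 0.424 and 0.650 CPM (12, 21, 17 and 20 counts). The highest mutant thus held less than the lowest control by a wide margin, and Cck fell by 3.28 on the log2 scale (SE 0.27, edgeR adjusted p = 0.00342). At 3 months the controls lay close together, at 3.72, 3.84, 3.81 and 3.70 CPM, and the mutants at 1.25, 1.39, 1.79 and 0.997 CPM. The fall was 1.46 on the log2 scale (SE 0.18, edgeR adjusted p = 0.00464). Every mutant of 3 months lay above every mutant of 8 days. With all 15 libraries scaled together, these mutants held 0.973 to 1.74 and 0.276 to 0.666 CPM. The share of all genes with this order was not computed, and 37.8% of genes were called between the mutants of the 2 times.

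Sst, which encodes the inhibitory hormone somatostatin, kept about the same mean at both times but spread more at 3 months. At 8 days the controls held 10.1, 10.4 and 12.5 CPM and the mutants 4.36, 3.24, 3.57 and 3.25 CPM. The 4 mutants lay close together, and Sst fell by 1.61 on the log2 scale (SE 0.15, edgeR adjusted p = 0.0067). At 3 months the controls held 12.2, 11.0, 10.8 and 8.73 CPM and the mutants 2.18, 2.67, 5.997 and 6.23 CPM. The mutants formed a low and a high pair, from 20.4% to 58.2% of the control mean, and the fall was 1.32 (SE 0.33, edgeR adjusted p = 0.0407). That call was lost in 5 of 8 fits that each left out 1 library. Adjusted p was then 0.0985, 0.0952 and 0.095 without controls 1, 2 and 3, and 0.0615 and 0.0681 without mutants 1 and 2.

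Sct, which encodes secretin, had the smallest change with all libraries in the fit, although without mutant 1 of 3 months its change was slightly larger than that of Sst (-1.111 against -1.106). At 8 days the controls held 27.7, 32.5 and 35.9 CPM and the mutants 14.1, 21.2, 16.6 and 21.4 CPM. The groups did not overlap, but the log2 change of -0.81 (SE 0.16) did not pass over all genes (edgeR adjusted p = 0.201, unadjusted p = 0.000629). At 3 months the controls held 31.0, 23.9, 28.1 and 38.5 CPM and the mutants 20.1, 14.5, 14.9 and 12.8 CPM. Sct then fell by 0.97 (SE 0.17, edgeR adjusted p = 0.0165), a call lost without control 1 (adjusted p = 0.051). DESeq2 called Sct at 8 days with the same change (adjusted p = 0.000311).

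**Figure D1:**
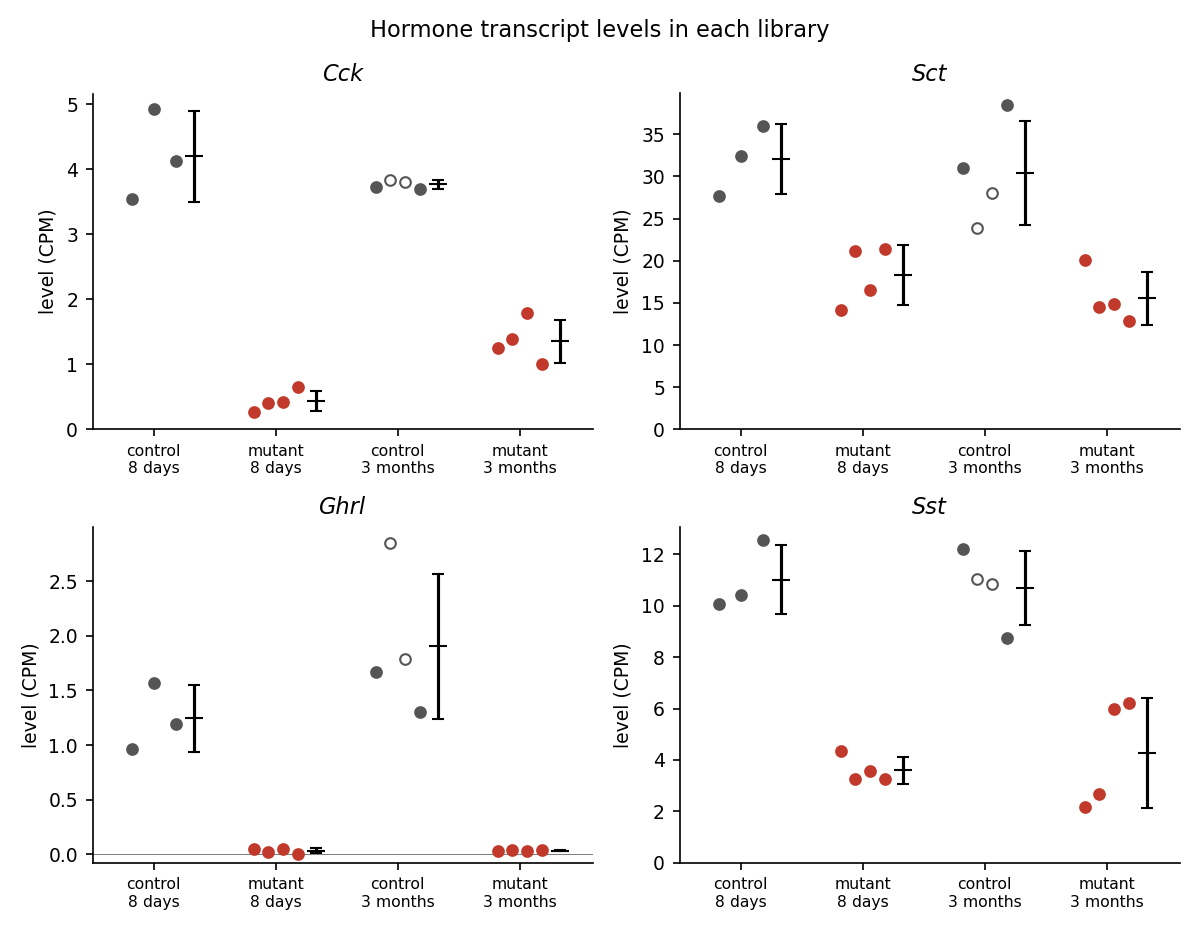
Levels of the 4 hormone transcripts in CPM on a linear axis, 1 point per library, for control (grey) and mutant (red) groups at 8 days and 3 months; open grey points are Rfx6f/+ controls and black bars are mean ± SD. In all 4 panels the mutant points lie below the control points, with Ghrl at or below 0.05 CPM in every mutant.

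The 2 Rfx6f/+ controls of 3 months held 3.84 and 3.81 CPM of Cck, just above the 3.72 and 3.70 CPM of the Rfx6f/f controls. Their Sst, at 11.0 and 10.8 CPM, lay inside the range of the Rfx6f/f controls (8.73 to 12.2 CPM). Ghrl was at 2.86 and 1.79 CPM in the Rfx6f/+ controls and at 1.67 and 1.30 CPM in the Rfx6f/f controls. Sct was at 23.9 and 28.1 CPM and at 31.0 and 38.5 CPM in the same order. The 2 control genotypes were not tested against each other. Against Rfx6f/f controls only, the 3-month changes were -1.44 for Cck, -1.16 for Sct and -1.29 for Sst. With 2 controls left, the edgeR adjusted p was 0.0904, 0.0746 and 0.224, while Ghrl was still called.

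The change in Cck depended on the time point. Fitted over all 15 libraries, its mutant effect was 1.79 higher at 3 months than at 8 days (SE 0.31, edgeR adjusted p = 0.0265), and 0.785% of 17959 genes were called in this contrast in either direction. For Sct the difference was -0.17 (SE 0.25, edgeR adjusted p = 0.792), for Ghrl -0.56 (SE 0.86, 0.821) and for Sst 0.27 (SE 0.40, 0.796). Ghrl, with so few mutant reads, had the widest error. The Cck call was lost in 6 of 15 fits that each left out 1 library, with adjusted p of 0.0579, 0.0587 and 0.0643 without controls 1, 2 and 3 of 3 months, 0.0676 and 0.079 without controls 2 and 3 of 8 days, and 0.0568 without mutant 3 of 8 days. The difference itself stayed between 1.62 and 2.01. With Rfx6f/f controls only, so that the controls of both times shared a genotype, it was 1.84 and was not called (edgeR adjusted p = 0.143).

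Compared directly, Cck was higher in the mutants of 3 months than in those of 8 days by 1.59 on the log2 scale (SE 0.23, edgeR adjusted p = 0.000165), a contrast in which 37.8% of all genes were called. Sct, Ghrl and Sst did not pass in that contrast, with log2 differences of -0.30, 0.00 and 0.17. Between the controls of both times, where 45.1% of all genes were called, none of the 4 passed. The log2 differences of 3 months over 8 days were -0.21 for Cck, -0.13 for Sct, 0.57 for Ghrl and -0.10 for Sst, with edgeR adjusted p of 0.44, 0.587, 0.115 and 0.807. Age of the deletion and cohort cannot be told apart here. For Cck the order of the groups was therefore the controls of 8 days and 3 months, which did not differ beyond their spread, then the mutants of 3 months, then those of 8 days. For Sct, Ghrl and Sst both control groups stood above both mutant groups, with no call inside either pair.

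**Figure D2:**
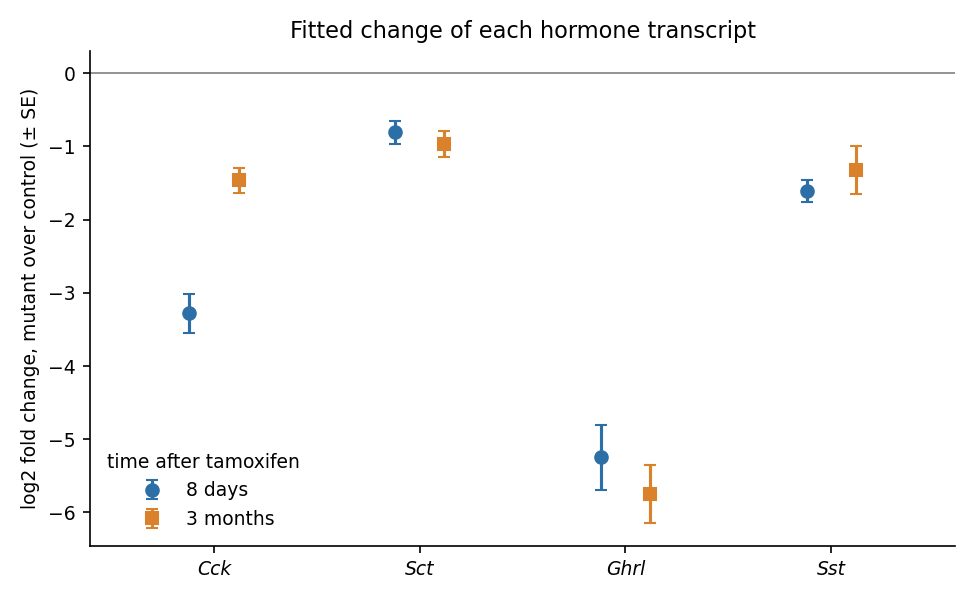
Fitted log2 fold change (mutant over control) with its SE for each hormone transcript at 8 days (blue circles) and 3 months (orange squares). Cck moves from -3.28 to -1.46, while Sct, Sst and Ghrl shift less between the times.

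Divided by exon length, the control levels at 8 days were 49.7 CPM per kilobase for Sct, 15.3 for Sst, 3.22 for Cck and 1.15 for Ghrl. At 3 months they were 47.1, 14.8, 2.89 and 1.76 in the same order, so the ranking by level was the same at both times. The share left in mutants had the same order over these 4 genes at both times, with Sct highest and Ghrl lowest by the means. At 3 months the single libraries of Sct (42.2% to 66.0%), Sst (20.4% to 58.2%) and Cck (26.5% to 47.4%) overlapped. Without mutant 4 of 3 months the order of Cck and Sst turned, with fitted changes of -1.34 for Cck and -1.55 for Sst.

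In ratios of 2 hormones within the same library its depth cancels, except for the pairs with Ghrl, where the pseudocount weighs against 0 to 2 mutant counts. Between Cck and Sct the log2 ratio of counts was -2.93 ± 0.204 (n = 3) in controls and -5.39 ± 0.323 (n = 4) in mutants at 8 days. All 6 pairs separated the groups without overlap at 8 days. Their exact two-sided permutation p of 0.0571 is the smallest that 3 against 4 allows, so no pair could reach 0.05. The 6 ratios are built from 4 genes and are not independent of each other. How many pairs among all genes separate the groups in this way was not computed at either time. The mutant-minus-control difference was -2.46 (SE 0.20) for Cck/Sct, -1.66 (SE 0.38) for Cck/Sst and 0.79 (SE 0.25) for Sct/Sst. For the pairs with Ghrl, at a pseudocount of 0.5, it was 1.82 (SE 0.67, and 1.39 at a pseudocount of 1) for Cck/Ghrl, 4.28 (SE 0.60) for Sct/Ghrl and -3.49 (SE 0.44) for Ghrl/Sst. With 1 library left out, Cck/Ghrl ran from 1.23, without mutant 4, to 2.24. In every mutant library of 8 days Sct was higher relative to Sst, Sst relative to Cck, and Cck relative to Ghrl than in any control.

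The 3 pairs with Ghrl at 3 months again did not overlap, with differences of 3.78 (SE 0.34) for Cck/Ghrl, 4.31 (SE 0.41) for Sct/Ghrl and -3.82 (SE 0.46) for Ghrl/Sst. Their exact permutation p was 0.0286, the smallest that 4 against 4 allows, and 0.0761 after adjustment over the 12 comparisons. The other 3 pairs overlapped, with differences of -0.53 (SE 0.25, exact permutation p = 0.143) for Cck/Sct, -0.03 (SE 0.43, p = 0.971) for Cck/Sst and 0.50 (SE 0.55, p = 0.486) for Sct/Sst. After adjustment over the 12 comparisons 0.05 could not be reached at either time with these numbers of libraries, so the differences and their errors are what these ratios give. The Sct/Sst ratio of the 3-month mutants ran from 1.04 to 3.19, wider than the controls' 1.12 to 2.14, and the 2 mutants with high Sst had the lowest ratios. The direction of Cck/Sst rested on single libraries, at 0.05 without control 4, 0.04 without mutant 3 and 0.33 without mutant 4. The size of Sct/Sst did too, at 0.10 without mutant 1 and 0.82 without mutant 4.

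**Figure D3:**
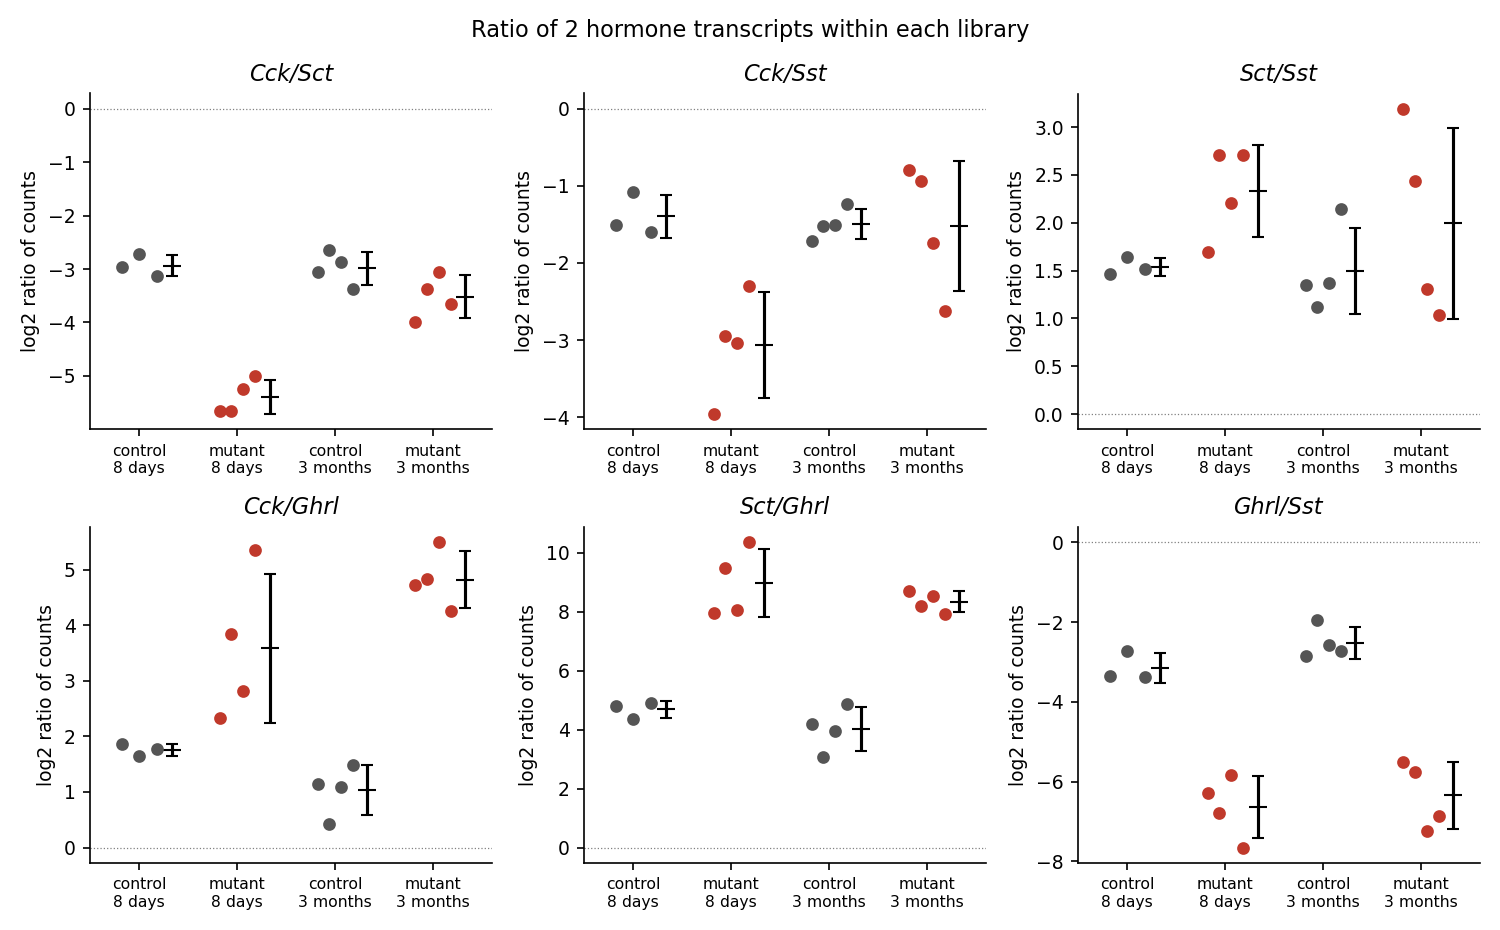
Log2 ratio of the counts of 2 hormones within each library (1 point each, control grey, mutant red, bars mean ± SD), for all 6 pairs in the 4 groups. At 8 days every pair separates mutant from control, and at 3 months Cck/Sct, Cck/Sst and Sct/Sst overlap while the pairs with Ghrl do not.

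Other cell types in the samples were read from marker genes. Enteric neurons, which also transcribe Cck and Sst, had a summed level of 10 genes of 68.5 to 94.7 CPM in controls and 66.2 to 84.6 CPM in mutants at 8 days, and none of the 10 was called. Of the 10 genes only Snap25, a synaptic gene, was called at 3 months, rising by 0.70 (edgeR adjusted p = 0.0106), and the cells behind that rise were not tested. In the 3-month samples the controls held a summed level of 61.6 to 64.7 CPM and the mutants 65.9, 61.9, 89.8 and 66.9 CPM. Mutant 3, the highest in this sum, also held the highest Cck (1.79 CPM) and one of the 2 high Sst levels. Mutant 4, at 66.9 CPM, held the highest Sst (6.23 CPM) and the lowest Cck (0.997 CPM). Of the 8-day mutants, mutant 2 was highest in the sum (84.6 CPM) and mutant 4 lay far below it (66.2 CPM). Both were lowest in Sst, at 3.24 and 3.25 CPM. Mutant 1, next to mutant 2 in the sum (79.1 CPM), held the highest Sst (4.36 CPM) and the lowest Cck (0.270 CPM). The part of neuronal RNA in the remaining Cck and Sst was not tested.

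Genes that vary along the gut differed between the libraries. The summed level of Gata4 and Onecut2, factors of the proximal small intestine, was 29.7 to 69.2 CPM in the 8-day controls but 31.7, 1.33, 45.3 and 1.89 CPM in mutants 1 to 4. Without mutants 2 and 4, the 8-day changes were -3.59 for Cck (edgeR adjusted p = 0.0206), -4.63 for Ghrl (0.0358), -1.06 for Sct (0.107) and -1.47 for Sst, whose adjusted p became 0.0845. By 3 months the same sum was 4.89 to 10.5 CPM in controls and 5.62 to 24.9 CPM in mutants. The ileal genes Fabp6, Slc10a2 and Osr2 summed to 1712 to 2421 CPM in controls and 1751, 2379, 1374 and 1582 CPM in mutants 1 to 4 at 8 days. Mutant 2, lowest in Gata4 and Onecut2, was highest of the mutants in this sum, and mutant 3, highest of the mutants in them, was lowest. Other libraries did not follow this order. Mutant 4, at 1.89 CPM of Gata4 and Onecut2, held less of the ileal genes than mutant 1. Control 3 of 8 days was the lowest control in both sums (29.7 and 1712 CPM). At 3 months they summed to 2544 to 3220 CPM in controls and 888 to 1532 CPM in mutants. Most of that sum was Fabp6, while Slc10a2 (log2 change -0.55, edgeR adjusted p = 0.188) and Osr2 (0.17, 0.498) were not called. Sampling position was not analysed here beyond these genes, and its part in the 3-month changes was not tested.

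Among other cell types, single marker genes were called. The enterocyte genes Alpi, Fabp2, Apoa1 and Sis summed to 6703 to 8977 CPM in controls and 12105 to 16942 CPM in mutants at 8 days, and to 4604 to 7574 and 13718 to 20086 CPM at 3 months. Most of the difference in the sum was Sis, the brush border enzyme sucrase-isomaltase, at 2400 ± 344 and 8002 ± 2491 CPM at 8 days and 1827 ± 310 and 10138 ± 2255 CPM at 3 months. Of the 4 genes Sis alone was called, rising by 1.74 at 8 days (edgeR adjusted p = 0.0433) and by 2.47 at 3 months (0.000567), while Alpi had a lower mean in mutants at 8 days (525 against 685 CPM). The 6 immune genes summed to 453 to 826 CPM in controls and 596 to 1103 CPM in mutants at 8 days, and to 2236 to 3132 and 1226 to 1763 CPM at 3 months, when Jchain fell by 0.85 (edgeR adjusted p = 0.0182). Among goblet cell genes Muc2 rose by 0.95 at 3 months (edgeR adjusted p = 0.0144). No gene of the lists for glia, general epithelium, Paneth cells, tuft cells or smooth muscle was called. In the 6 general enteroendocrine genes, summing to 90.4 to 118.6 CPM in controls and 107.7 to 155.3 CPM in mutants at 8 days, none was called. At 3 months they summed to 122.3 to 163.4 and 333.6 to 420.5 CPM, with Chga and Chgb rising and Scgn falling. The part of these genes' cell types in the hormone changes was not tested.

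Pancreatic genes reached 0.423 to 34.0 CPM in controls and 0.254 to 65.9 CPM in mutants at 8 days, and 21.1 to 554.3 and 11.8 to 162.2 CPM at 3 months. The islet genes Ins1 and Ins2 had 0 counts at 8 days and at most 5 at 3 months, and stomach genes summed to 10.1 CPM at most. The part of pancreatic or gastric RNA in the Sst and Ghrl reads was not tested. Without control 4 and mutant 4 of 3 months, the highest in pancreatic genes, all 4 hormones were still called, at -1.36 for Cck (edgeR adjusted p = 0.0176), -0.75 for Sct (0.0402), -5.95 for Ghrl (0.00226) and -1.64 for Sst (0.046).

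**Figure D4:**
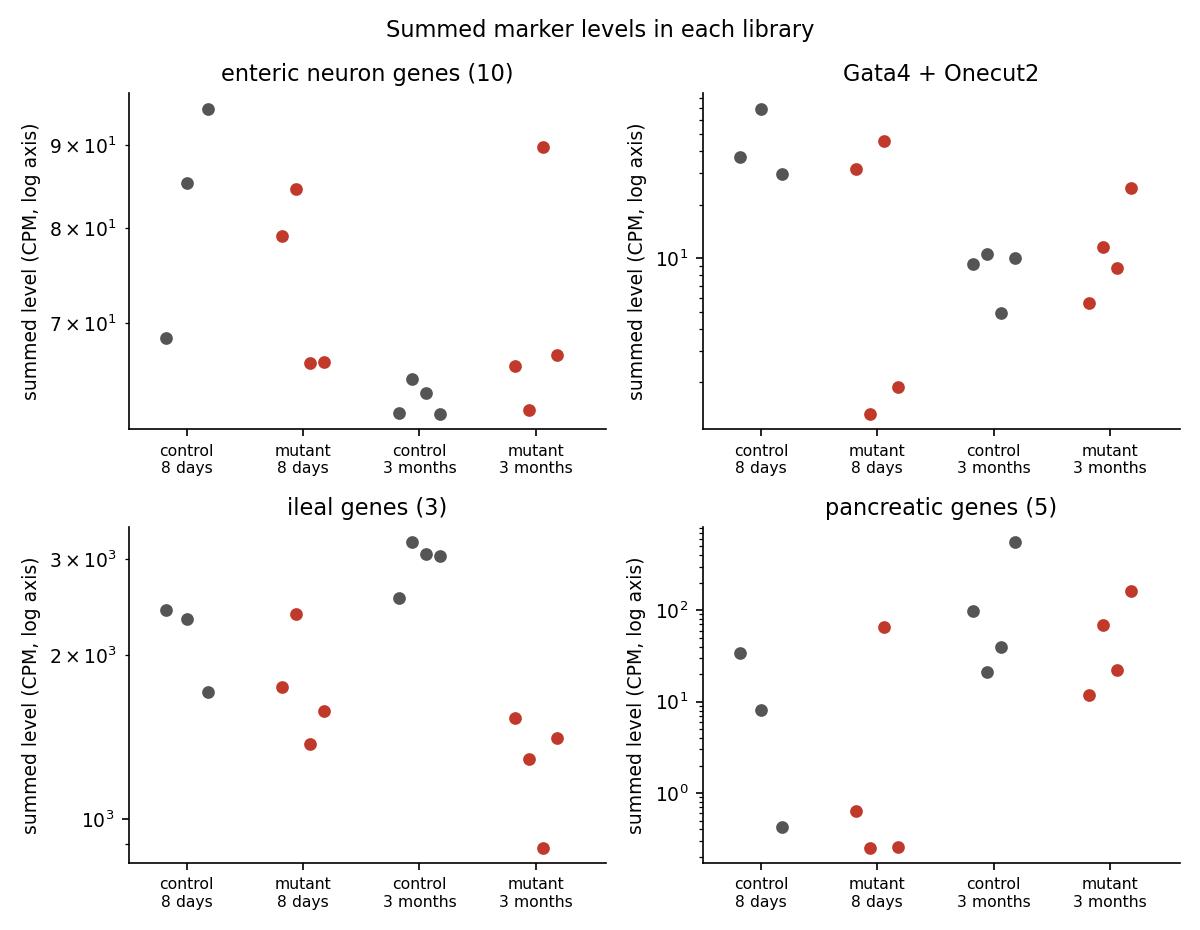
Summed CPM (log axis) of marker genes of enteric neurons, proximal small intestine (Gata4 and Onecut2), ileum and pancreas in each library, control grey and mutant red. Mutants 2 and 4 of 8 days stand out with 1.33 and 1.89 CPM of Gata4 and Onecut2, and 3-month control 4 with 554.3 CPM of pancreatic genes.

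Of 9 listed receptor genes for these hormones, 7 were tested at 8 days and 6 at 3 months. The calls, 0 of 7 and 1 of 6, were few, as were those over all genes (0.0572% lower and 0.0343% higher at 8 days, 4.32% and 4.96% at 3 months). Sstr1, a somatostatin receptor, was the one called, rising by 0.80 (SE 0.16, edgeR adjusted p = 0.0213) at 3 months. The median change of the tested receptors was -0.10 at 8 days and -0.40 at 3 months, against -0.00197 and 0.00769 over all genes. Sstr5, another somatostatin receptor, had log2 changes of -1.55 (edgeR adjusted p = 0.2) and -1.07 (0.139). Ghsr, the ghrelin receptor, had 0 to 2 counts in each library and Cckbr 0 to 5, too few to test. Cckar, the receptor for cholecystokinin on gallbladder and pancreas, had 52 counts in 3-month control 4, the library highest in pancreatic genes, against 5 to 13 in the other controls of that time.

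No gene of prohormone processing was called at either time among Pcsk1, Pcsk2, Cpe, Pam, Scg5, Pcsk1n, Tpst1 and Tpst2, all 8 of which were tested, and their median change was 0.00 at 8 days and 0.13 at 3 months. Pcsk1, the convertase that cuts these precursors in endocrine cells, held 17.8 ± 2.54 CPM in controls and 14.0 ± 1.41 CPM in mutants at 8 days and 26.3 ± 3.00 and 29.1 ± 4.86 CPM at 3 months. Mboat4, which acylates ghrelin, was read at 2 to 12 counts per library and was not tested.

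Among transcription factors of endocrine cells, Isl1 and Pax6 fell at both times. Isl1, a LIM homeodomain factor needed for many gut hormone cells, had 35 to 71 counts in controls and 0 to 2 in mutants at 8 days, a 35.6-fold difference of summed counts (95% exact interval 16.0 to 98.5, counting error only; edgeR adjusted p = 0.00342). At 3 months it fell by 3.37 (SE 0.31, edgeR adjusted p = 0.00138). Pax6, a paired-homeodomain factor, fell by 1.87 (SE 0.22, edgeR adjusted p = 0.0207) and by 2.24 (SE 0.28, 0.00606). At 3 months Rfx6 rose by 0.72, Nkx2-2 by 1.15 and Pax4 by 1.94 (edgeR adjusted p = 0.0347, 0.0326 and 0.0168). No other of the 11 factors tested at 8 days or the 10 at 3 months was called. Hhex, a factor of somatostatin cells, had log2 changes of 0.95 and -0.40 (edgeR adjusted p = 0.582 and 0.42). The median over the tested factors was -0.26 at 8 days and 0.51 at 3 months.

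Of 6 receptors that sense luminal contents in hormone cells, 6 were tested at 8 days and none was called (median change -0.56). At 3 months 3 could be tested, with a median of -0.20, and Ffar1, a receptor for long-chain fatty acids, fell by 2.41 (SE 0.62, edgeR adjusted p = 0.0442). Casr, the calcium-sensing receptor, had 6 to 22 counts in the 3-month controls and 0 to 2 in the mutants. Gpr119, a lipid sensor, had 3 to 17 counts in those controls and 0 in the mutants.

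Among 9 other endocrine products, Gcg and Gip were called lower at 8 days. Pyy and Nts were not called then but were already lower in mutants. Pyy held 18.3 to 24.2 CPM in controls and 1.30 to 5.78 CPM in mutants, and Nts 41.8 to 53.7 and 3.22 to 18.7 CPM. Gcg, Gip, Pyy and Nts were called lower at 3 months, when Tph1, Chga and Chgb, genes of serotonin and granule content, rose. The median over the tested products was -2.30 and -3.21. These products went both ways, with 5 negative and 4 positive changes at 8 days and 5 and 3 at 3 months. The median therefore does not describe them as a set, and no difference between these products and the 4 hormones was tested.

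The genes nearest to each hormone gene were examined for reads that could move with it. Cdhr5, a brush border cadherin that begins 1543 bases downstream of Sct on the same strand, had log2 changes of 0.06 and 0.07 (edgeR adjusted p = 0.941 and 0.781). Trak1, 14905 bases downstream of Cck on the opposite strand, changed by 0.02 at 8 days and rose by 0.54 at 3 months (edgeR adjusted p = 0.0106), opposite to Cck. Tatdn2 and Sec13, beside Ghrl at 5049 and 8181 bases, were not called at either time. The genes beside Sst, Rtp2 and Rtp4, lie 34589 and 275350 bases away. Rtp2 had at most 1 count in any library. Rtp4 had lower means in mutants, as Sst did, at 9.18 ± 0.555 CPM in controls and 8.07 ± 0.390 CPM in mutants at 8 days. At 3 months these were 9.30 ± 1.72 and 6.13 ± 1.56 CPM. Drd4, a dopamine receptor gene upstream of Sct, had 8 to 16 counts in 8-day controls and 1 to 3 in the mutants, below the filter for testing.

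The genes most like each hormone were ranked by the root-mean-square difference of cohort-centred log2 CPM over the 15 libraries, among 13426 genes. For Cck they were Gfra3 (0.608), Klra17 (0.691) and Abcc8 (0.756), with a median over all genes of 1.23. For Sct they were Scgn (0.219), Kyat1 (0.238) and Ces1e (0.248), median 0.5263, and for Sst Pkhd1 (0.406), Myl7 (0.491) and Abcc8 (0.5003), median 0.863. For Ghrl the ranking gave Krt84 (1.20), Ifit1bl1 (1.29) and Pkhd1 (1.37), median 2.12, but the minimum average level of log2 CPM 0 leaves out low genes lost to a like degree. Scgn, which encodes the calcium-binding protein secretagogin, had log2 changes of -0.71 at both times (edgeR adjusted p = 0.46 at 8 days and 0.0223 at 3 months). Abcc8, a subunit of the ATP-sensitive potassium channel, changed by -1.20 and -0.80 (0.0115 and 0.0256). Among the 4 hormones themselves the closest pair was Sct and Sst at 0.621 and the most distant Sct and Ghrl at 1.71. All 15 libraries and their depths are shared by these distances, which were not tested.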

How the data were processed

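RNA of 15 ileum samples was sequenced from ribosome-depleted libraries, per the labels' protocols, although the molecule label names polyadenylated RNA. The authors deposited raw read counts per Ensembl gene in 2 tables, 1 per time point. The submitters' processing notes list mm9, bcl2fastq 2.17.1.14, Bowtie 1.0.0, TopHat2 2.0.10, Bowtie2 2.1.0 and HTSeq 0.6.1, with no roles. The annotation release and strand setting are not given in the sources used here, nor which sample had which of the 2 extraction methods.

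Names for 32897 of 37620 identifiers (87.45%) were taken from GENCODE M21 (GRCm38). It served for names, neighbours and exon lengths only. Each time point was tested with edgeR 4.0.16 (R 4.3.3, limma 3.58.1) after filterByExpr at a minimum count of 10. The fit of 15 libraries with 4 group means gave the time contrasts. SE is the log2 change divided by the square root of F. The scripts were tested on simulated data. Tests are two-sided, and p-values measure the spread between these animals. Ratios used a pseudocount of 0.5 and an exact permutation test over libraries. The lowest within-group chi-square per degree of freedom was 12.1, which sets separate animals against counting noise only, so no conclusion is drawn from it. The genes named were the 4 hormones, 5 pathway lists, 14 marker lists, nearest annotated genes and the 3 genes most like each hormone among genes averaging 0 or more on the log2 CPM scale. Members, lists and motifs were chosen with earlier results of these data known. Alternatives were DESeq2 1.42.0, limma-voom, other scalings, no filter, a joint fit, Rfx6f/f controls only, a pseudocount of 1 and each library left out. Fits without the libraries low in Gata4 and Onecut2, or highest in pancreatic genes, were added after seeing the data. Figures used matplotlib 3.10.9. Results for some listed genes are not reported here.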

Additional observations from a re-analysis of the deposited data

Results flagged for a closer look

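With all 15 libraries, the mutant effect on Cck differed between time points by a log2 value of 1.79 (3 months minus 8 days; edgeR interaction adjusted p = 0.0265). The call was lost in 6 of 15 fits that each left out 1 library (adjusted p from 0.0568 to 0.079) and with Rfx6f/f controls only (1.84, edgeR adjusted p = 0.143). All 4 mutants of 3 months lay above all 4 mutants of 8 days, while the controls of both times did not differ beyond their spread. The share of all genes with this order of the mutants was not computed, and 37.8% of genes were called between these 2 mutant groups. In 12 checks of the hormones for a sample far from the rest of its group, none was found, and groups of 3 were not checked.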

How the results depend on the processing

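The calls of Cck and Ghrl at 8 days held under every alternative run, as did that of Ghrl at 3 months. Genes called, 16 at 8 days, 1586 at 3 months and 141 for the interaction, were 178, 2989 and 1013 with DESeq2. Without the filter they were 27 at 8 days and 223 for the interaction, and the joint fit gave 25 at 8 days. With Rfx6f/f controls only they were 36 at 3 months and 5 for the interaction. With 1 library left out they ran from 8 to 200, from 391 to 1521 and from 10 to 749. Of the 200, called without mutant 1 of 8 days, 90% were higher in mutants.

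Sct at 8 days passed with DESeq2 (-0.81). With Rfx6f/f controls only, 3-month Cck (-1.44), Sct (-1.16) and Sst (-1.29), and the Cck interaction (1.84, edgeR adjusted p = 0.143) did not pass. The ratios Cck/Ghrl (3.50), Sct/Ghrl (3.80) and Ghrl/Sst (-3.55) were about as large, and their exact permutation p of 0.133 is the smallest that 2 controls against 4 mutants allow. Cck/Sct (-0.30 against -0.53 with all controls) and Sct/Sst (0.25 against 0.50) became smaller, and Cck/Sst was -0.05. In the alternative chosen after seeing the data, Sst at 8 days without the libraries low in Gata4 and Onecut2 was -1.47 and did not pass. The cause was not tested, but these settings also hold fewer libraries. With 1 library left out, 3-month Sct ran from -1.11 to -0.83, 3-month Sst from -1.55 to -1.11, the Cck interaction from 1.62 to 2.01, Cck/Ghrl from 3.56 to 3.97, Sct/Ghrl from 3.99 to 4.60 and Ghrl/Sst from -4.09 to -3.52. The last 3 had an exact permutation p of 0.0571, the smallest possible with 7 libraries. Cck/Sst ran from -0.28 to 0.33 and turned positive in 3 of 8 (0.05, 0.04 and 0.33).

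No paired analysis was possible because nothing in the labels links a mutant animal to a control animal. Ghrl in mutants, at 0 to 2 counts, limits any estimate of its remaining level or of its change over time.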
